A study of Mus musculus with 8 samples.

Results

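The genes of the V(D)J recombinase and of the end-joining machinery that seals its breaks were followed in RNA sequencing of mouse thymocytes. The group was set by name: Rag1, Rag2, Dntt, Xrcc5, Xrcc6, Prkdc, Dclre1c, Xrcc4, Lig4 and Nhej1, 10 of the 55359 genes listed in the deposited tables. All 10 were found in each of the 8 samples, and all 10 passed the filter on low values (at least 1 FPKM in at least 4 samples), so none was left out. FPKM is the number of mapped fragments scaled to the length of the gene and to the size of the library, so it allows levels of different genes to be set side by side, as far as the gene length used fits the transcripts.

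The cells were double positive (DP) thymocytes, which carry both CD4 and CD8, sorted for absent to intermediate TCR beta on the surface, from mice aged 5 weeks. All 8 samples carried the LSL-Sting1-N153S allele, in which a loxP-flanked stop cassette keeps a gain-of-function form of STING silent. The 4 controls (genotype LSL-Sting1-N153S/+, replicates 1 to 4) had no Cre, while the 4 Lck-cre samples (LSL-Sting1-N153S;Lck-cre, replicates 5 to 8) also carried Cre driven by the Lck promoter, which acts in T lineage cells from early stages on. Each group had 1 female (replicates 1 and 5) and 3 males. No samples with Lck-cre alone were analysed here, so an effect of Cre itself and an effect of the released allele cannot be told apart. It is not stated whether each sample was a separate mouse, so p-values measure the spread between these samples.

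V(D)J recombination assembles antigen receptor genes from separate segments. RAG1 and RAG2 together cut at signal sequences beside the segments and leave hairpin-sealed coding ends; the Ku dimer binds the ends, DNA-PKcs and Artemis open the hairpins, terminal transferase adds untemplated nucleotides, and XRCC4, DNA ligase IV and XLF join them. In the thymus the recombinase acts in a first wave on the TCR beta, gamma and delta loci and in a second wave on the TCR alpha locus at the DP stage, when the cells have left the cycle. RAG2 protein is removed when cells enter S phase, which keeps cutting out of replicating cells.

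Rag1 and Rag2 were lower in the Lck-cre samples, while no end-joining gene passed the test in either direction. Rag1, the subunit that holds the catalytic site, stood at 791, 901, 731 and 786 FPKM in control replicates 1 to 4 and at 539, 647, 530 and 436 FPKM in Lck-cre replicates 5 to 8. All 4 Lck-cre samples lay below the lowest control. Rag1 fell from 802 ± 71.4 to 538 ± 86.2 FPKM (SD, n = 4 each), a ratio of means of 1.49 in favour of the controls. On the log2 scale this was a change of -0.59 with an SE of 0.13 and a 95% confidence interval of -0.87 to -0.30 (limma, adjusted p = 0.0141). In bulk samples such as these, fewer cells that express a gene and less RNA per cell cannot be told apart.

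Rag2, the partner that recognises a histone mark of active chromatin, lay at 72.1, 70.3, 68.9 and 61.1 FPKM in the controls and at 41.7, 57.7, 51.6 and 41.1 FPKM in the Lck-cre samples. The groups again did not overlap, with the highest Lck-cre value 57.7 FPKM and the lowest control value 61.1 FPKM. Rag2 fell from 68.1 ± 4.82 to 48.0 ± 8.05 FPKM (log2 change -0.51, SE 0.11, 95% interval -0.77 to -0.25, limma adjusted p = 0.0157). These were the 2 of 10 genes that passed, a share of 20%, against 25.8% of all 12337 genes tested that passed in either direction and 10.4% that passed as lower. With 10 genes the share rests on these 2. None of the 10 passed as higher by limma (1 at an unadjusted p under 0.05, Xrcc5), against 15.4% of all genes. At that unadjusted p there were 4 of the 10 (Rag1, Rag2, Xrcc5 and Dclre1c), against 41.4% of all. Groups that did not overlap were likewise found in 2 of the 10 genes and in 29.4% of all genes tested. Both lay lower in the Lck-cre samples, as in 12.3% of all, and none of the 10 lay higher without overlap, as in 17.1% of all. With TPM in place of FPKM, Rag1 and Rag2 had changes of -0.66 and -0.59, and the calls over all genes turned from 1901 higher and 1279 lower to 1300 higher and 2067 lower.

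Leaving out each sample in turn kept the Rag1 call in 6 of 8 fits and the Rag2 call in 5 of 8. Without control replicate 1 the adjusted p by limma was 0.0572 for Rag1 and 0.0723 for Rag2, without Lck-cre replicate 5 it was 0.0579 and 0.0725, and for Rag2 it was 0.0501 without control replicate 2. Without either female the fit compares 3 males with 3 males, and the changes were -0.60 for Rag1 and -0.42 for Rag2, with -0.50 for Rag2 without control replicate 2.

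**Figure D1:**
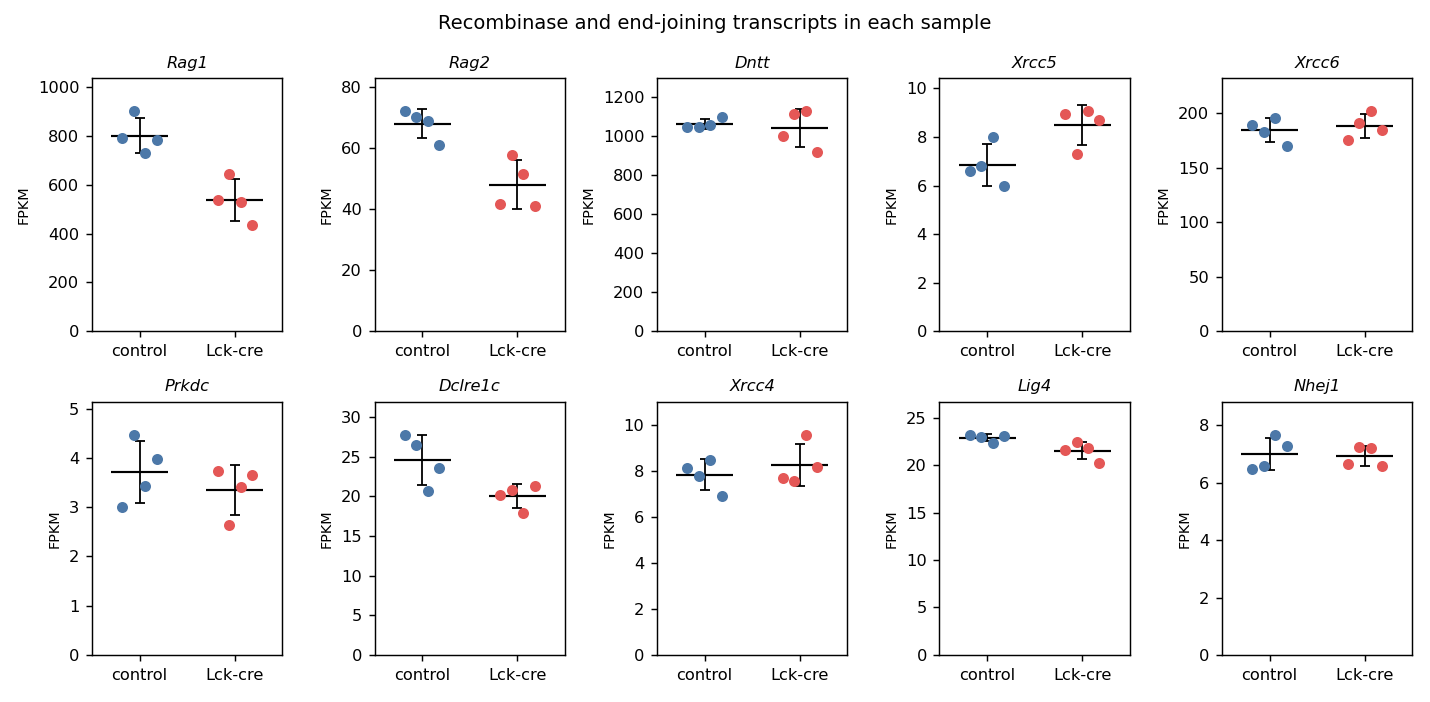
Level of each gene in each sample, in FPKM on a linear axis from 0, with points for the 4 control (blue) and 4 Lck-cre (red) samples, a horizontal line at the group mean and bars of 1 SD. Rag1 and Rag2 are the 2 genes whose groups do not overlap, and the Dntt, Xrcc6 and Nhej1 groups lie at nearly the same means.

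The Rag genes face each other on chromosome 2 and are controlled in part by shared elements. The files place Rag2 on the plus strand from 101455063 to 101462874 and Rag1 on the minus strand from 101468627 to 101479846, by a build not named in the sources used here, which leaves 5752 bases between their 3′ ends. The ratio of Rag1 to Rag2 FPKM was 10.98, 12.8, 10.6 and 12.9 in the controls and 12.9, 11.2, 10.3 and 10.6 in the Lck-cre samples. The groups overlapped almost fully, with means of 11.8 ± 1.19 and 11.3 ± 1.18 (SD, n = 4 each; exact two-sided permutation p = 0.543, adjusted over 6 ratios p = 0.543). A ratio within a sample does not depend on how the library was scaled. The span of Iftap, listed on the minus strand from 101391126 to 101479877, covers both Rag genes whole, and whether the authors' counting kept strands apart is not stated, so reads could be shared between these genes. Iftap lay at 76.8 ± 12.04 FPKM in the controls and 57.7 ± 10.1 FPKM in the Lck-cre samples (log2 change -0.41, SE 0.15, limma adjusted p = 0.0683).

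The promoters are shown because those of Rag1, Rag2 and Dntt hold fewer CG dinucleotides than those of the end-joining genes. The RefSeq promoter table (GRCm38.p6) held 9 of the 10 genes, all but Prkdc, with 2 entries for Lig4. The sequences run 5′ to 3′ over the 250 bases before the transcript start. Capitals mark CG dinucleotides. The Rag1 window is chr2:101649533-101649782 on the minus strand, that of Rag2 chr2:101624462-101624711 on the plus strand, that of Dntt chr19:41029025-41029274 on the plus strand and that of Xrcc6, printed for contrast, chr15:82016119-82016368 on the plus strand.
Rag1: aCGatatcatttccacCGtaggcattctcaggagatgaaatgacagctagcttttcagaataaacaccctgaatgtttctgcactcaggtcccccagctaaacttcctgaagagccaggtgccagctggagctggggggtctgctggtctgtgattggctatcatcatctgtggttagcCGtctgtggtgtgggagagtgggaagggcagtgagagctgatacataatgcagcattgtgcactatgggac
Rag2: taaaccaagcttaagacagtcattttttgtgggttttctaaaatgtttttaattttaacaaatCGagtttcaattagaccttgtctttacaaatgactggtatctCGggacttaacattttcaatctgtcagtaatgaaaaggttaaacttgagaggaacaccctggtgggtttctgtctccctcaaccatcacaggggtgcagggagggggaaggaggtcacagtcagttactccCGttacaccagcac
Dntt: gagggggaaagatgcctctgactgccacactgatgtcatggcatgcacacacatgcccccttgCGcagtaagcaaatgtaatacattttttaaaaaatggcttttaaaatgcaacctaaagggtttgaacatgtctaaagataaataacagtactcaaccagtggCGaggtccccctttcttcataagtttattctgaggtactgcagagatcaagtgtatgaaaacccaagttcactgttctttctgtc
Xrcc6: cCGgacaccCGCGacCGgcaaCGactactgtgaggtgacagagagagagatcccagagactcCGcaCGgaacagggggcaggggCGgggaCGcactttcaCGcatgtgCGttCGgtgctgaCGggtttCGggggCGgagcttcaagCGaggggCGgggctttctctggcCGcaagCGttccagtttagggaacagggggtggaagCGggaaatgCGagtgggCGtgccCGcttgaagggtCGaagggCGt

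Rag1 and Rag2 had 3 CG dinucleotides each and Dntt had 2, against a median of 6 over 32851 promoter windows of the same length (quartiles 2 and 16). Xrcc6 had 25, Xrcc4 26 and Lig4 27 and 28 in its 2 windows, while Xrcc5 had 5, Dclre1c 8 and Nhej1 9. The GC box GGGCGG, searched like all motifs here on both strands, was in none of the Rag1, Rag2, Dntt and Xrcc5 windows. It was also absent from the Lig4 window with 27 CG dinucleotides. It was found in 5 of the 10 windows, 3 times each in those of Xrcc6 and Xrcc4, and in 32.7% of all windows. E-boxes (CANNTG, the motif read by E proteins such as E2A and HEB, both strands) were found 3 times in Rag1, once in Rag2 and 3 times in Dntt. They were in 9 of the 10 windows, all but that of Xrcc4, with 2 each in Xrcc5 and Dclre1c. E-boxes are in 66.2% of all windows, so a match carries little information. A stretch checked shortly after the start was found in a reference transcript for every window except that of Rag1. Distances in Rag1 therefore rest on the RefSeq start alone. In Rag1 the E-box word CAGGTG starts 135 bases before the transcript start, CAGCTG starts 128 bases before it, and CATCTG starts 85 bases before it. TGTGGT, a RUNX motif (both strands) found in 14.0% of all windows, occurs 2 times in Rag1 and overlaps the last of these E-boxes by its first copy. The GATA motif AGATAA was found in the Dntt window and in that of Nhej1, and in 9.99% of all windows. TATAAA and the FOXO motif GTAAACA were found in no window of the 9 genes, and in 12.4% and 3.17% of all windows.

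Dntt encodes terminal deoxynucleotidyl transferase, which adds the N nucleotides that diversify receptor junctions, and was the most abundant transcript of the group. It lay at 1047, 1048, 1055 and 1097 FPKM in the controls and at 1001, 1112, 1127 and 919 FPKM in the Lck-cre samples. The 4 control values fell within the range of the Lck-cre values. The means were 1062 ± 23.5 and 1040 ± 97.9 FPKM (SD, n = 4 each), with a log2 change of -0.03 (SE 0.09, 95% interval -0.24 to 0.17, limma adjusted p = 0.806). The interval holds changes of up to 0.24 on the log2 scale in the direction of a decrease.

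Set against Rag1 within each sample, Dntt was higher in every Lck-cre sample. The ratio of Dntt to Rag1 was 1.32, 1.16, 1.44 and 1.40 in the controls and 1.86, 1.72, 2.13 and 2.11 in the Lck-cre samples. The means of 1.33 ± 0.123 and 1.95 ± 0.198 (SD, n = 4 each) differed with an exact two-sided permutation p of 0.0286, the smallest that 4 against 4 samples allow, and an adjusted p of 0.171 over the 6 ratios tested. The groups separated fully, and with the other 5 ratios at a larger p the adjusted value could not have been smaller in this design. Rag1 alone already separated the groups and Dntt did not pass, so this ratio largely restates the Rag1 decrease. It is no separate result for Dntt.

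**Figure D2:**
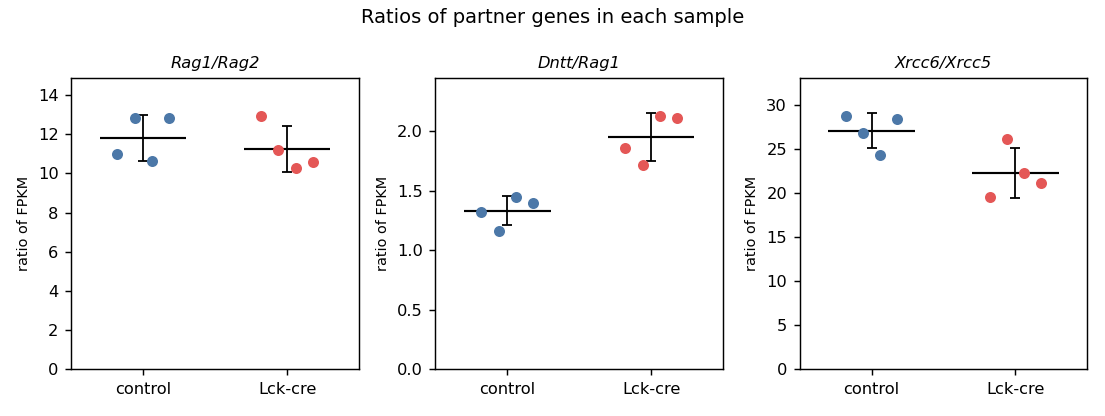
Ratios of FPKM within each sample for 3 of the 6 pairs tested, on linear axes from 0, with a horizontal line at the group mean and bars of 1 SD. The Dntt to Rag1 ratio is 1.16 to 1.44 among controls, against 1.72 to 2.13 with Lck-cre, while the groups of the Rag1 to Rag2 and Xrcc6 to Xrcc5 ratios overlap.

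The Ku subunits, which form a ring around broken DNA ends and start end joining, stood far apart in level. Xrcc6, which encodes Ku70, lay at 190, 183, 196 and 170 FPKM in the controls and at 176, 191, 202 and 184 FPKM in the Lck-cre samples. The groups overlapped (184 ± 11.1 and 188 ± 11.05 FPKM, log2 change 0.03, SE 0.07, 95% interval -0.13 to 0.19, limma adjusted p = 0.792), and the sign turned with TPM values (-0.046) and with quantile normalization (-0.062). The span of Xrcc6 overlaps that of Desi1 on the other strand over 79.1% of its length, and Desi1 lay at 150 and 149 FPKM in the 2 groups.

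Xrcc5, which encodes Ku80, lay at 6.59, 6.79, 8.02 and 5.96 FPKM in the controls and at 8.96, 7.29, 9.06 and 8.72 FPKM in the Lck-cre samples. Lck-cre replicate 6 lay below the highest control, replicate 3, and the other 3 Lck-cre samples lay above all controls. The means were 6.84 ± 0.861 and 8.504 ± 0.824 FPKM (SD, n = 4 each), with a log2 change of 0.30 (SE 0.11, 95% interval 0.05 to 0.54, limma adjusted p = 0.0696). It passed without control replicate 3 (adjusted p = 0.0332) and without Lck-cre replicate 6 (adjusted p = 0.0299). Xrcc6 exceeded Xrcc5 by a ratio of 28.8, 26.9, 24.4 and 28.5 in the controls and 19.6, 26.2, 22.3 and 21.1 in the Lck-cre samples, and the groups of this ratio overlapped through replicate 6 (exact two-sided permutation p = 0.0571, adjusted over 6 ratios p = 0.171).

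Prkdc, the gene of the kinase DNA-PKcs that Ku recruits, had the lowest level of the group. It lay at 2.996, 4.46, 3.43 and 3.97 FPKM in the controls and 3.72, 2.63, 3.40 and 3.66 FPKM in the Lck-cre samples. The groups overlapped (3.71 ± 0.638 and 3.35 ± 0.503 FPKM, log2 change -0.13, SE 0.14, 95% interval -0.44 to 0.19, limma adjusted p = 0.524). The size of the change moved with single samples, from -0.26 without control replicate 1 or Lck-cre replicate 5, through -0.05 without control replicate 2, to -0.02 without Lck-cre replicate 6.

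Dclre1c, the gene of Artemis, the nuclease that opens the hairpins once DNA-PKcs has bound, lay at 27.7, 26.5, 20.7 and 23.6 FPKM in the controls and at 20.2, 20.8, 17.9 and 21.3 FPKM in the Lck-cre samples. Control replicate 3 lay inside the range of the Lck-cre samples, and the other 3 controls lay above it. The means were 24.6 ± 3.17 and 20.1 ± 1.51 FPKM (SD, n = 4 each), with a log2 change of -0.28 (SE 0.10, 95% interval -0.50 to -0.07, limma adjusted p = 0.0550). This gene sat at the threshold, and the scaling decided its side. The adjusted p was 0.0352 with TPM values, 0.0424 with quantile normalization, 0.0486 with median-of-ratios scaling and 0.0256 without control replicate 3, each with a decrease.

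The ligation genes were at low to middle levels, and none passed the test. Lig4, the gene of DNA ligase IV, which has no known role outside end joining, lay at 23.2, 23.0, 22.3 and 23.1 FPKM in the controls and 21.6, 22.4, 21.8 and 20.3 FPKM in the Lck-cre samples. The highest Lck-cre value just overlapped the lowest control (22.9 ± 0.393 and 21.5 ± 0.892 FPKM, log2 change -0.09, SE 0.06, 95% interval -0.22 to 0.04, limma adjusted p = 0.280). Xrcc4, whose protein holds and stabilises the ligase, lay at 6.92 to 8.48 FPKM among the controls, against 7.56 to 9.55 FPKM among the Lck-cre samples. Its groups overlapped (log2 change 0.07, SE 0.10, 95% interval -0.15 to 0.29, adjusted p = 0.635), and its sign turned with TPM values (-0.0025). Nhej1, which encodes XLF, a protein that pairs with XRCC4 in filaments that bridge the ends, lay at 6.49 to 7.66 FPKM among the controls, against 6.60 to 7.26 FPKM among the Lck-cre samples (log2 change -0.01, SE 0.08, 95% interval -0.19 to 0.16, adjusted p = 0.921).

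None of the other 3 ratios passed the exact permutation test. The Xrcc4 to Lig4 ratio was 0.342 ± 0.0335 in the controls and 0.384 ± 0.0456 in the Lck-cre samples (exact permutation p = 0.200, adjusted p = 0.400). The Nhej1 to Xrcc4 ratio was 0.900 ± 0.112 and 0.847 ± 0.0887 (exact permutation p = 0.514, adjusted p = 0.543), and the Dclre1c to Prkdc ratio was 6.80 ± 1.64 and 6.11 ± 1.22 (exact permutation p = 0.457, adjusted p = 0.543; SD, n = 4 each).

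**Figure D3:**
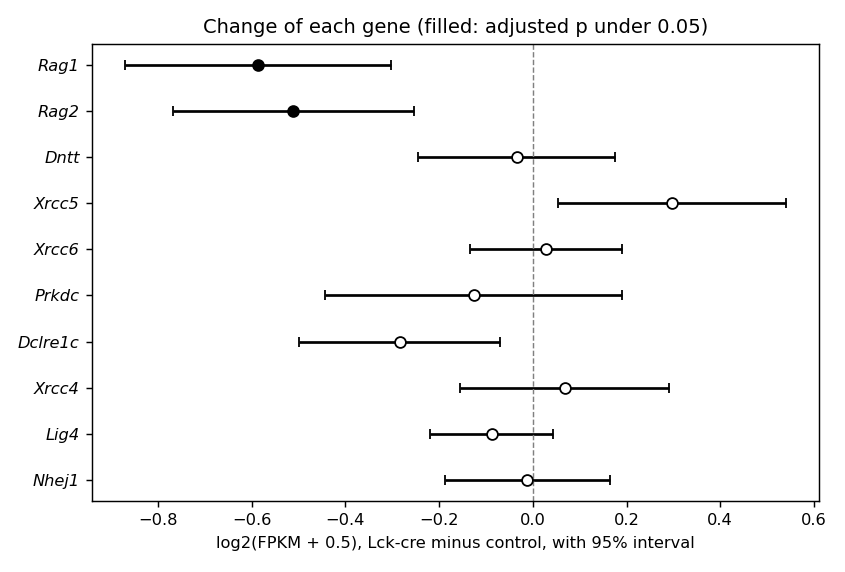
Log2 change of each gene, Lck-cre minus control, on log2(FPKM + 0.5), with its 95% interval from limma, and filled points for an adjusted p under 0.05. Rag1 at -0.59 and Rag2 at -0.51 are filled, the intervals of Xrcc5 and Dclre1c lie to either side of 0 without passing after adjustment, and the other 6 intervals include 0.

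In the controls the order of levels ran from Dntt through Rag1, Xrcc6, Rag2, Dclre1c, Lig4, Xrcc4, Nhej1 and Xrcc5 to Prkdc. Dclre1c and Lig4 had overlapping sample ranges, as had Xrcc4 and Nhej1, and Nhej1 and Xrcc5, so these neighbours did not differ beyond their spread. The other neighbours in the order had ranges that did not overlap. In the Lck-cre samples the first 4 places were the same, Lig4 and Dclre1c followed with overlapping ranges, and Xrcc5 and Xrcc4 overlapped ahead of Nhej1 and Prkdc. TPM differs from FPKM by 1 factor per sample, so it cannot change an order within a sample. The coverage column gave another order for some genes. Coverage per base divided by FPKM was 0.120 to 0.126 for Xrcc4, 2.42 to 3.04 for Dclre1c and Xrcc6 and 7.53 to 7.89 for Rag1, and by coverage Xrcc4 (0.830 to 1.19 reads per base), not Prkdc (19.7 to 32.2), was the lowest. The places of Xrcc4, Dclre1c and Xrcc6 among the levels, and the size of ratios that hold them, are therefore uncertain.

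The Lck-cre samples differed among themselves in the Rag genes and in Sting1 itself. Sting1, the check of the labels, lay at 11.6 to 15.3 FPKM in the controls and at 221, 85.4, 130 and 232 FPKM in Lck-cre replicates 5 to 8 (log2 change 3.52, SE 0.25, limma adjusted p = 0.00213). Replicate 6 had the lowest Sting1 of the 4 and the highest Rag1 (647 FPKM) and Rag2 (57.7 FPKM). Replicate 8 had the highest Sting1 and the lowest Rag1 (436 FPKM), Rag2 (41.1 FPKM) and Dntt (919 FPKM). The middle samples kept this order for Rag2, at 41.7 FPKM in replicate 5 and 51.6 FPKM in replicate 7, but not for Rag1. Replicate 5, with more Sting1 than replicate 7, had Rag1 at 539 FPKM, against 530 FPKM in replicate 7. Dntt was highest in replicate 7 (1127 FPKM), not in replicate 6 (1112 FPKM). With 4 samples an order by Sting1 was not tested. Without replicate 6 the change was -0.68 for Rag1 and -0.60 for Rag2, and without replicate 8 it was -0.48 and -0.43.

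Cell cycle genes rose in the Lck-cre samples in which the Rag genes fell. All 23 of the S phase genes tested rose, with a median log2 change of 0.67, and of 21 G2/M genes 18 passed as higher and 0 as lower in limma (19 and 0 at an unadjusted p under 0.05), with a median of 0.46, against a median of 0.01 and the 25.8% called over all genes. The thymidylate synthase gene Tyms rose from 23.7 ± 2.60 to 39.8 ± 4.42 FPKM and the replicative helicase gene Mcm3 from 64.0 ± 8.999 to 121 ± 19.6 FPKM. The mitotic kinase gene Aurkb rose from 59.1 ± 7.27 to 89.0 ± 10.8 FPKM and the kinetochore gene Ndc80 from 17.5 ± 2.07 to 26.1 ± 3.17 FPKM (SD, n = 4 each). The summed S phase level was 1122, 1290, 1471 and 1478 FPKM in the controls and 2196, 1804, 2157 and 2403 FPKM in Lck-cre replicates 5 to 8. Replicate 6, highest in Rag1 and Rag2 among these 4, was lowest in this sum, while control replicate 1, lowest of the controls in the sum, was highest in Rag2 but not in Rag1. The part of the cell cycle in the Rag result was not tested.

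**Figure D4:**
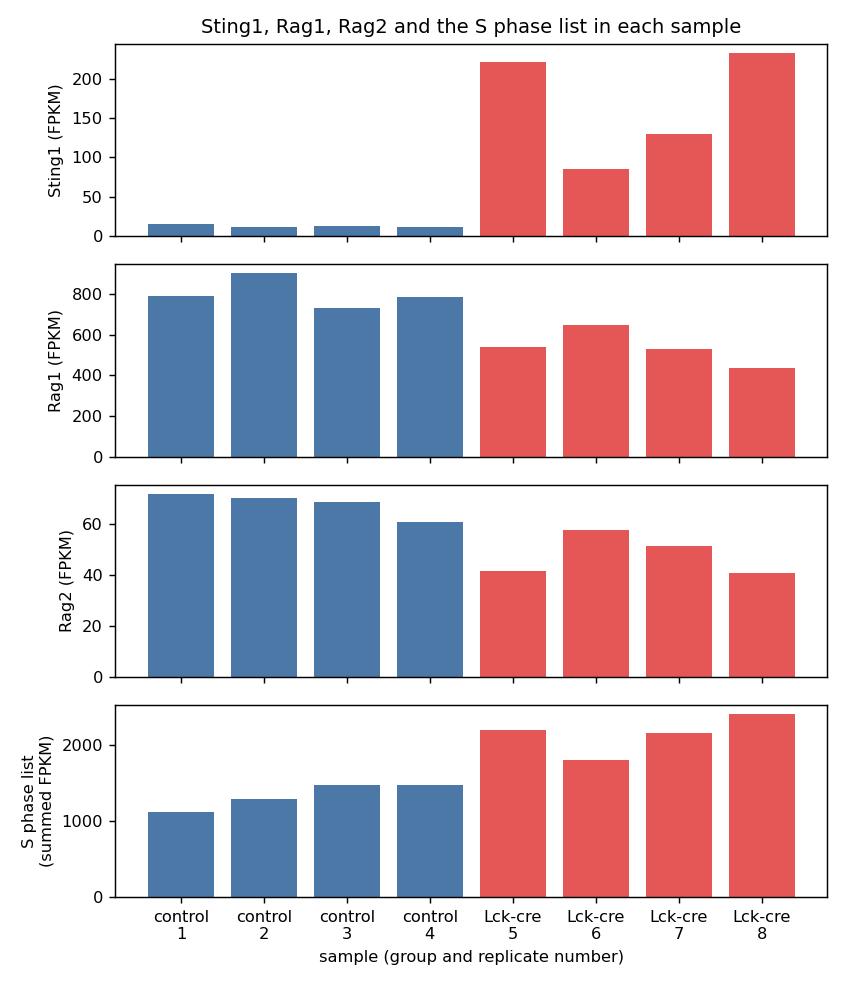
Sting1, Rag1 and Rag2 in FPKM and the summed FPKM of 23 S phase genes in each of the 8 samples, as bars from 0, controls in blue and Lck-cre in red. Lck-cre replicate 6 has the lowest Sting1 (85.4 FPKM) and S phase sum (1804 FPKM) of its group and the highest Rag1 and Rag2.

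Markers of the sorted stage and of other cells were set beside these values. Cd4 (699 to 788 FPKM among controls, 422 to 689 among Lck-cre samples) and Cd8a (1079 to 1237 and 941 to 1198) were high throughout, as the DP label implies. Of 10 DP markers 3 fell by limma (Cd4, adjusted p = 0.0356, Themis, 0.0474, and Cd1d1, 0.0277) and 0 rose. The share called was 30%, against 25.8% of all genes called and 10.4% that fell. At an unadjusted p under 0.05, 4 DP markers were lower and 0 higher, and their median log2 change was -0.19. Markers of double negative (DN) thymocytes, the earlier stage where the first wave of recombination takes place, summed to 19.9 to 26.9 FPKM among the controls, against 23.8 to 41.0 FPKM among the Lck-cre samples. Of the 4 DN markers tested the Notch target Dtx1 rose and 0 fell by limma, a share of 25%. At an unadjusted p under 0.05, 3 of them were higher (Dtx1, Il2ra and Notch3) and 1 was lower (Cd44). Kit stayed at or below 0.869 FPKM, and 5 of 10 were under 1 FPKM in all samples. Of those under 1 FPKM, Lyl1 was higher without overlap (means 0.418 and 0.677 FPKM), and the groups of Kit, Erg, Spi1 and Bcl11a overlapped. Hes1, below the filter, had means of 0.501 and 2.06 FPKM with overlapping groups. B cell precursors also use the recombinase, and of 9 B cell markers 7 were under 1 FPKM in all samples, Pax5 reached at most 0.00323 FPKM, and neither of the 2 tested passed (sum 16.3 to 24.3 and 11.2 to 20.8 FPKM).

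Of 11 myeloid and dendritic cell markers 6 were under 1 FPKM in all samples, and 3 of the 5 tested rose (Cd68, H2-Aa and H2-Ab1). The share called was 60%, against 25.8% of all genes called and 15.4% that rose. That share includes H2-Aa, which met the filter only through the Lck-cre samples. It lay at 0.244 to 0.509 FPKM in the controls, with a mean of 1.545 FPKM in the Lck-cre samples. Its call is therefore no support for a rise. The sums of 63.7 to 80.9 and 71.0 to 81.5 FPKM were mostly Cst3 (means 58.8 and 57.4 FPKM). Of those under 1 FPKM, Siglech (means 0.0552 and 0.593 FPKM), Lyz2 (0.163 and 0.560) and Csf1r (0.00427 and 0.0360) were higher without overlap. The groups of Itgax, Adgre1 and Flt3 overlapped. Of 10 epithelial and stromal markers 7 were under 1 FPKM in all samples, Pdgfra was listed at 0 in all, and none of the 3 tested passed. Their sums were 50.3 to 62.2 and 58.6 to 66.9 FPKM, mostly Pecam1 (means 48.5 and 53.5 FPKM). Of those under 1 FPKM, only Krt8 was higher without overlap (means 0.0642 and 0.200 FPKM). Of 8 NK and innate lymphoid markers 6 were under 1 FPKM in all samples, with Ncr1 and Gzmb listed at 0. The sum was 18.4 to 29.2 FPKM among the controls, against 36.5 to 90.3 FPKM among the Lck-cre samples, mostly from Gzma, which rose. The other NK marker tested, Prf1, lay at 1.99 and 1.11 FPKM (log2 change -0.67, SE 0.24, limma adjusted p = 0.0692). Nkg7, under 1 FPKM in all samples, was higher without overlap (means 0.0485 and 0.574 FPKM). The groups of Klrb1c, Eomes and Zbtb16 overlapped. All 6 erythroid markers were under 1 FPKM, with sums of at most 0.123 and 0.350 FPKM. The part of these cells in the Rag result was not tested.

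Among end-processing and accessory end-joining factors, 1 of 9 tested (of 10, Poll being below the filter) rose and 1 fell, with a median log2 change of -0.08. The share called was 22.2%, against 25.8% of all genes. Polm, the gene of polymerase mu, which fills gaps at immunoglobulin light chain and other junctions, fell from 12.3 ± 2.15 to 8.61 ± 1.61 FPKM (log2 change -0.49, SE 0.14, limma adjusted p = 0.0333). That call ended in 8 of 18 alternatives (adjusted p up to 0.130), among them those leaving out control replicate 1, 2 or 3 and those leaving out Lck-cre replicate 5, 7 or 8. Tdp1, the gene of a phosphodiesterase that cleans 3′ ends, rose from 27.1 ± 1.49 to 35.5 ± 1.26 FPKM (log2 change 0.38, SE 0.06), a call kept in all 18. Paxx, the XRCC4-like scaffold gene, lay at 50.3 and 41.9 FPKM (adjusted p = 0.0699). Of this list 3 fell with TPM values or with quantile normalization, against 2067 and 1523 of all 12337 genes in these 2 settings.

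In the list of break sensing and the 53BP1 pathway, 3 of 16 tested rose and 0 fell in limma (at an unadjusted p under 0.05, 6 and 0), with a median of 0.13. The share called was 18.8%, against 25.8% of all genes called and 15.4% that rose. H2ax, the gene of the histone variant phosphorylated around breaks, rose from 218 ± 22.7 to 304 ± 18.9 FPKM (log2 change 0.49, SE 0.07). Of the sensor complex at broken ends, Nbn rose from 5.34 ± 0.774 to 8.01 ± 1.22 FPKM, Rad50 rose from 8.55 to 11.4 FPKM in the mean, and Mre11a lay at 9.64 and 10.3 FPKM (adjusted p = 0.445). Atm, the kinase that responds to RAG breaks, lay at 4.21 and 4.59 FPKM (adjusted p = 0.676) and Trp53bp1 at 10.4 and 9.72 FPKM (adjusted p = 0.441). The calls of Nbn and Rad50 ended in 5 and 8 of 18 alternatives (adjusted p up to 0.0751 and 0.103), for both without control replicates 1 or 2 or Lck-cre replicate 5, and for Rad50 also without control replicate 4 or Lck-cre replicates 7 or 8.

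Alternative end joining is the slower, deletion-prone route used when the classical factors are lacking. Of its 10 genes 5 rose and 0 fell in limma (at an unadjusted p under 0.05, 6 and 0), with a median of 0.32, a share of 50% beside the 25.8% of all genes. Lig1 rose from 52.9 ± 6.13 to 93.6 ± 16.2 FPKM (log2 change 0.81, SE 0.13) and the flap endonuclease gene Fen1 from 28.4 ± 3.60 to 46.3 ± 6.12 FPKM (log2 change 0.70, SE 0.11), and both enzymes also mature Okazaki fragments in replication. Rbbp8, whose product CtIP starts resection, rose from 12.5 to 17.3 FPKM, Parp1 from 44.5 to 58.4 FPKM and Parp2 from 20.2 to 24.4 FPKM. Polq, the polymerase gene that marks this route most closely, lay at 3.24 and 4.63 FPKM (log2 change 0.44, SE 0.16, adjusted p = 0.0685), and Lig3 at 12.3 and 11.8 FPKM (adjusted p = 0.522). The call of Parp2 ended in 13 of 18 alternatives (adjusted p up to 0.112), among them each without 1 sample except Lck-cre replicate 6. It also ended with quantile normalization, TPM values, median-of-ratios scaling and no trend in the fit. That of Parp1 ended in 4 (up to 0.0648), among them those without control replicate 1 or Lck-cre replicate 5.

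Among RAG cofactors and genes of RAG protein turnover, 6 of 13 rose and 0 fell in limma (at an unadjusted p under 0.05, 7 and 0), with a median of 0.25. The share called was 46.2%, against 25.8% of all genes called and 15.4% that rose, and with TPM values 3 of the 13 rose, against 1300 of 12337 genes. Hmgb2, a DNA-bending protein gene whose product helps RAG bind its signal sequences, rose from 238 ± 30.2 to 346 ± 39.8 FPKM (log2 change 0.54, SE 0.09), while its relative Hmgb1 lay at 367 and 363 FPKM (adjusted p = 0.919). The ubiquitin ligase that marks phosphorylated RAG2 for removal uses Skp2 and Cks1b to recognise its substrate. Skp2 rose from 6.06 to 8.93 FPKM and Cks1b from 55.5 ± 9.13 to 89.5 ± 10.6 FPKM (log2 change 0.69, SE 0.10). Cdk2 and Ccna2, which encode the kinase and cyclin that phosphorylate RAG2, rose from 76.9 to 93.9 and from 83.2 to 105 FPKM, and Cul1, the scaffold gene of the ligase, from 28.0 to 33.4 FPKM. These genes are also general cell cycle genes. The calls of Cul1, Cdk2 and Ccna2 ended in 13, 12 and 8 of 18 alternatives (adjusted p up to 0.127, 0.147 and 0.10), for all 3 on leaving out control replicate 1 or 2 and on leaving out Lck-cre replicate 5 or 8, for Cul1 and Cdk2 also without control replicates 3 or 4 and for Cul1 and Ccna2 without Lck-cre replicate 7. The calls of Cul1 and Cdk2 also ended with quantile normalization, TPM values, median-of-ratios scaling and no trend in the fit, and that of Ccna2 with TPM values. That of Skp2 ended without control replicate 1 or Lck-cre replicate 5 (up to 0.0546).

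Of 23 regulators of Rag and Dntt transcription 21 were tested, Bach2 and Zfp608 being below the filter. Of the 21 tested, 1 rose and 2 fell, a share of 14.3% against 25.8% of all genes called, with a median of -0.11. Lef1, a factor of the Wnt pathway, fell from 118 ± 7.54 to 84.2 ± 15.5 FPKM (log2 change -0.50, SE 0.12). Id3, an inhibitor of E proteins, fell by 0.31 on the log2 scale (SE 0.07), from 72.3 ± 2.45 to 58.5 ± 4.96 FPKM. Runx3 rose from 4.45 ± 0.512 to 8.09 ± 2.04 FPKM (log2 change 0.77, SE 0.17). The E protein genes Tcf3 (144 and 155 FPKM, adjusted p = 0.225) and Tcf12 (127 and 123 FPKM, adjusted p = 0.713) did not pass, nor did the chromatin organiser gene Satb1 (582 and 536 FPKM, adjusted p = 0.409), Runx1 (34.0 and 33.9 FPKM, adjusted p = 0.962), Ikzf1 (166 and 176 FPKM, adjusted p = 0.345) or Foxo1 (5.79 and 5.03 FPKM, adjusted p = 0.121). The calls of Lef1, Id3 and Runx3 ended without control replicate 1 or Lck-cre replicate 5 (limma adjusted p up to 0.0881, 0.0790 and 0.0659). That of Lef1 also ended without control replicate 2. With TPM values 5 genes of this list fell, against 2067 of all 12337 genes.

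Around the Rag locus the neighbours did not move as a block. Of 7 genes tested, Rag1 and Rag2 among them, 3 fell and 1 rose, a share of 57.1% against 25.8% of all genes. The 3 that fell were Rag1, Rag2 and Ldlrad3, so the median of -0.40 includes the Rag genes themselves. Iftap, whose span covers both Rag genes, had a log2 change of -0.41 and did not pass. Ldlrad3 fell from 17.4 to 13.2 FPKM (log2 change -0.40, SE 0.11), whereas Commd9, listed between Rag1 and Ldlrad3, rose from 13.2 ± 0.726 to 16.6 ± 0.615 FPKM (log2 change 0.32, SE 0.07). Traf6, the nearest neighbour on the Rag1 side, lay at 22.9 and 22.4 FPKM (adjusted p = 0.705) and Trim44 at 36.6 and 34.2 FPKM (adjusted p = 0.333), while Prr5l was below the filter. The call of Ldlrad3 ended in 7 of 18 alternatives (up to 0.104), among them those leaving out control replicate 1 or 2 and those leaving out Lck-cre replicate 5, 7 or 8, and that of Commd9 without control replicate 1 or Lck-cre replicate 5 (up to 0.0588).

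The constant genes of the loci that the recombinase acts on moved in different directions, with 5 of 8 higher, 1 lower and a median of 0.70. The share called was 75%, against 25.8% of all genes called and 15.4% that rose. That share and the median include Trgc4, which met the filter only through the Lck-cre samples. It lay at 1.07 to 4.08 FPKM there and at 0.300 to 0.800 FPKM in the controls, so its call is no support for a rise. Trac, the constant gene of the TCR alpha chain, fell from 524 ± 35.4 to 352 ± 81.7 FPKM (log2 change -0.60, SE 0.15), a change of about the size of that of Rag1. Trdc rose from 27.2 ± 1.04 to 52.2 ± 9.05 FPKM and Trgc2 from 1.59 ± 0.847 to 11.9 ± 5.70 FPKM, as did Trgc1, Trgc4 and the pre-TCR alpha gene Ptcra, while Trbc1 (adjusted p = 0.567) and Trbc2 (adjusted p = 0.960) did not pass. The calls of Trac and Ptcra ended without control replicate 1 or Lck-cre replicate 5 (up to 0.0996 and 0.0517), and that of Trac also without control replicate 2.

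**Figure D5:**
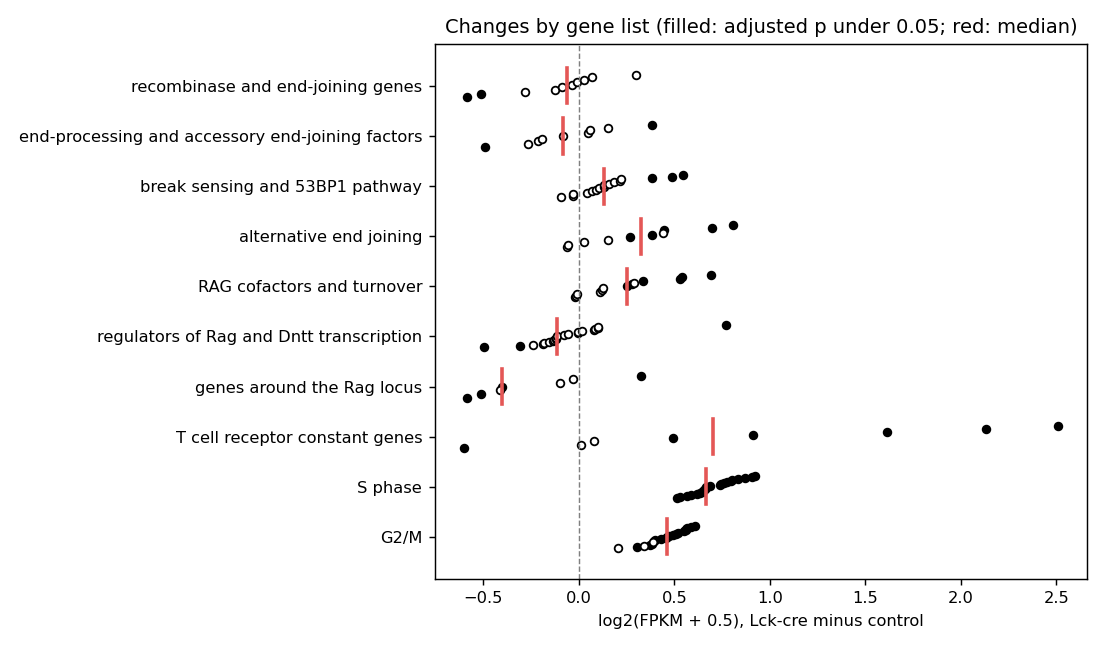
Log2 change, Lck-cre minus control, of each tested gene by list, with filled points for an adjusted p under 0.05 and a red line at the list's median. The recombinase and end-joining genes centre on -0.06, the S phase list lies wholly above 0, and the regulators of Rag and Dntt transcription centre on -0.11.

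The genes whose sample-to-sample pattern was most like that of each leading gene were taken among 6438 genes with a mean of at least 10 FPKM, by the root mean square (RMS) difference of centred log2 values over the 8 samples. For Rag1 these were Rab11fip4 (0.0342), Dyrk2 (0.0436) and Ets2 (0.0713), against an RMS of 0.335 for Rag1 about its own mean. Their log2 changes were -0.59, -0.57 and -0.55, beside the -0.59 of Rag1. For Rag2, whose own RMS was 0.301, they were Rab5b (0.0758), Traf3ip3 (0.0766) and Mprip (0.0782). For Dntt, whose own RMS was 0.0885, they were Pdcd2l (0.0330), Timmdc1 (0.0400) and Mapkap1 (0.0401), with log2 changes of -0.01, 0.01 and 0.02. All 8 samples share the split into groups, so likeness over them is a description.

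The samples had no read counts in the tables used here, so depth is unknown and no counting interval is given. The commonest ratio of coverage per base to FPKM was 7.53 to 7.89 over the 8 samples, and Rag1 had a mean coverage of 3341 to 6787 reads per base. Samples of the same group correlated at 0.983 to 0.992 (Pearson, across genes, on log2 values), and no pair shared more than 2 identical values.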

How the data were processed

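RNA was sequenced in 4 control and 4 Lck-cre samples. Per the submitters' processing notes the authors used HISAT and Bowtie2; the sources used here give no versions, roles, quantifier, build, annotation or strandedness. Per the file headers, the authors deposited FPKM, TPM and signal as read coverage per base for each gene. Entries sharing a gene ID were summed. No counts were used, so depth is unknown.

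The test was limma 3.58.1 (R 4.3.3) on log2(FPKM + 0.5), with a sex term, a genotype term and trended empirical Bayes, for every gene that reached 1 FPKM in 4 or more samples. Tests were two-sided, with Benjamini-Hochberg adjustment over all 12337 genes and a threshold of 0.05. The pseudocount understates changes of low genes. Ratios were compared by exact permutation over 70 assignments. Errors of levels are SDs over 4 samples. Levels were summarised in Python 3.11.15 with SciPy 1.17.1. The fit was tested on simulated data.

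The 10 genes and the 16 lists were chosen with earlier results of these data known. Named genes were the 10, Sting1, up to 2 called genes in each direction per pathway list, and the 3 genes most like Rag1, Rag2 and Dntt. Others of the lists were named after their values were seen. Alternatives were other scalings, pseudocounts, filters, sex terms and thresholds, and each sample left out in turn.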

Additional observations from a re-analysis of the deposited data

Results flagged for a closer look

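The values of the 10 genes and of the 6 ratios were checked within each group of 4 samples for a sample far from the others, and 2 of 32 such groups held one. Chance alone flags about 1 in 20 groups. Dntt in control replicate 4, at 1097 FPKM, stood above the other controls, which lay at 1047 to 1055 FPKM, a gap of 0.831 of the group's range, just past the limit of Dixon's test for 4 samples. The Dclre1c to Prkdc ratio in control replicate 1, at 9.26, stood above the other controls at 5.95 to 6.03.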

How the results depend on the processing

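The decreases of Rag1 and Rag2 kept their direction in every alternative run, and both stayed past the threshold with other scalings, other pseudocounts, a filter on the mean, no sex term and no trend. With no filter the changes were -0.59 and -0.51 (adjusted p = 0.0674 and 0.0692 by limma, with 28851 genes tested), in males alone -0.60 and -0.42 (adjusted p = 0.0575 and 0.0724), and at a threshold of 0.01 neither -0.59 nor -0.51 passed. In these 3 settings 0 of the 10 genes passed (4 had an unadjusted p under 0.05 with all samples and the filter), the genes called over all were 1056, 652 and 512, and the called genes of the pathway lists were 38, 34 and 36 in place of 70, Rag1 and Rag2 included. Dclre1c passed with quantile normalization (-0.32), TPM (-0.36) and median-of-ratios scaling (-0.31). Xrcc6 turned with quantile normalization (-0.062) and TPM (-0.046), Xrcc4 with TPM (-0.0025), and the Dclre1c to Prkdc ratio in males alone (log2 difference 0.063); none of these 3 passed in any setting. Leaving out 1 sample gave -0.68 to -0.48 for Rag1, -0.60 to -0.42 for Rag2, -0.073 to 0.030 for Dntt, -0.0033 to 0.12 for Xrcc4, 0.24 to 0.38 for Xrcc5, -0.016 to 0.075 for Xrcc6, -0.36 to -0.23 for Dclre1c, -0.050 to 0.022 for Nhej1, -0.26 to -0.017 for Prkdc, -0.11 to -0.060 for Lig4 and -0.28 to 0.012 for the Dclre1c to Prkdc ratio. It gave 647 to 3889 genes called, 0 to 4 of the 10 and 34 to 79 of the pathway lists. Of the 70, 34 were kept in all 18 fits at 0.05 and none changed sign. Without either female the sex term removes the other, so 3 males are compared with 3. These 2 fits and the fit in males alone are the same comparison, so the tallies out of 18 hold it 3 times. A call that ended in them cannot be laid to replicate 1 or replicate 5 singly. The cause of these shifts was not tested. No paired analysis was made because the labels used here name no litter, sort day or batch that joins samples of the 2 groups. Depth is unknown, so no counting error can be given, and the lowest coverage per base was that of Xrcc4.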

Other observations

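The deposited coverage of Xrcc4 was out of step with its FPKM. Xrcc4 had a coverage of 0.830 to 1.19 reads per base beside 6.92 to 9.55 FPKM, a ratio of 0.120 to 0.126, whereas Rag1, Xrcc5 and Nhej1 had the commonest ratio of 7.53 to 7.89. Xrcc6 and Dclre1c had ratios of 2.74 to 3.04 and 2.42 to 2.71. The ratios of Xrcc4, Xrcc6 and Dclre1c lay in a narrow range over the 8 samples. The place of these 3 genes in the order of levels, and the size of the ratios that hold any of them, depend on which of the deposited columns is read. The cause was not tested.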
